A study of Homo sapiens with 8 samples.

Results

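The 10 genes described here are CTNNB1, which encodes beta-catenin, the 4 factors of the TCF/LEF family (LEF1, TCF7, TCF7L1 and TCF7L2), and 5 genes that WNT signalling switches on in many tissues (AXIN2, SP5, NKD1, LGR5 and RNF43). They were taken by gene name from tables that list 34690 loci for day 3.5 and 33575 for day 0. Of the 10 members, 9 had a row of their own on both days. RNF43 was listed in a row merged with SUPT4H1, so its share of that row cannot be told apart. The 8 libraries were made from H9, an established human embryonic stem cell line, and form 4 groups of 2: cells induced towards mesoderm for 3.5 days on a soft gel of 400 Pa, the same on a stiff gel of 60 kPa, undifferentiated cells (day 0) on the soft gel, and undifferentiated cells on the stiff gel. Induction used bFGF, Activin, VEGF and BMP4, and all groups were grown in feeder-conditioned medium, per the labels. No label tells if the 2 libraries of each group come from independent cultures, and the authors' p-values cover the scatter of these libraries alone, perhaps a technical one.

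In canonical WNT signalling a WNT ligand stops the destruction complex from marking beta-catenin for degradation. Beta-catenin then enters the nucleus, binds TCF/LEF proteins that sit on DNA, and turns them into activators of genes, several of which damp the pathway in turn. Signalling of this kind is needed for the primitive streak and for mesoderm in the vertebrate embryo. The control acts on beta-catenin protein, so the level of CTNNB1 RNA is no measure of pathway activity.

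The promoters of SP5 and LEF1 are shown because these genes had the largest differences between the days among the members. Both are the 250 bases before the start site, written 5′ to 3′ on the gene's strand, from RefSeq on GRCh38.p14. The SP5 window is chr2:170715087-170715336 on the plus strand, and the LEF1 window is chr4:108166302-108166551 on the minus strand. Capitals mark matches to the 4 forms of the TCF/LEF motif that were searched on both strands, namely CTTTGAT, then CTTTGTT with a different sixth letter, CTTTGAA with a different last letter and CTTTGTA with both of these changed.
SP5: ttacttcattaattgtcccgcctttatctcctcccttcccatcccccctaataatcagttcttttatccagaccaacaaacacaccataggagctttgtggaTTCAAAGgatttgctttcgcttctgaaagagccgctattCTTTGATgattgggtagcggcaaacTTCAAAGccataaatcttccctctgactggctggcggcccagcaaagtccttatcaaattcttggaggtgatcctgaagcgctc
LEF1: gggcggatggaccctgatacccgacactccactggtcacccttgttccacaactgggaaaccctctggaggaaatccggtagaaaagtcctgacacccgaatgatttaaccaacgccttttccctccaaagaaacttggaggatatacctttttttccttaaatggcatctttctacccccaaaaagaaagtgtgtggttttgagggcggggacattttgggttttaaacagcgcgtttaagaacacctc
SP5 held 3 matches, which begin 148, 109 and 84 bases before the start and do not overlap. LEF1 held 0 matches, so these letters are not in that window. Of 35116 promoter windows of the same length, 12.0% held a match and 0.122% held 3 or more. Of the 10 members 7 had a window, 11 start sites in all, and 3 of the 11 windows held a match; the other two, each with 1 match, were at the second start sites of TCF7 and TCF7L2. A match describes the letters and is not a bound site.

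The tables give, per locus, the authors' FPKM for each group, a level scaled to transcript length and to the number of fragments sequenced. No value per library is given, so a level has no SD, read depth is unknown, and the groups cannot be checked for overlap of their libraries. The cell types were checked with markers. The summed FPKM of 6 pluripotency genes was 384 FPKM (soft) and 660 FPKM (stiff) in induced cells, against 1253 FPKM (soft) and 1244 FPKM (stiff) in undifferentiated cells. That of 7 mesoderm genes was 116 FPKM (soft) and 45.8 FPKM (stiff) in induced cells, against 10.4 FPKM (soft) and 14.9 FPKM (stiff) in undifferentiated cells. The tables of the days were made separately, so levels of different days are set side by side here and throughout without a test.

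CTNNB1 was the highest of the members with a row of their own in every group. It was at 228 FPKM (soft) and 207 FPKM (stiff) in induced cells, against 234 FPKM (soft) and 204 FPKM (stiff) in undifferentiated cells. In each group its level lay above that of more than 96% of expressed loci (from 96.2% to 96.9%). All 4 values lie within a narrow band, with the soft gel slightly above the stiff gel on both days. The log2 ratio of the soft over the stiff gel was 0.14 at day 3.5 (SE 0.50; 95% interval from -0.84 to 1.12 by the normal approximation) and 0.20 at day 0 (SE 0.36; from -0.52 to 0.91). Neither was called in the authors' deposited tables, with q = 0.99998 at day 3.5 and q = 0.9998 at day 0.

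**Figure D1:**
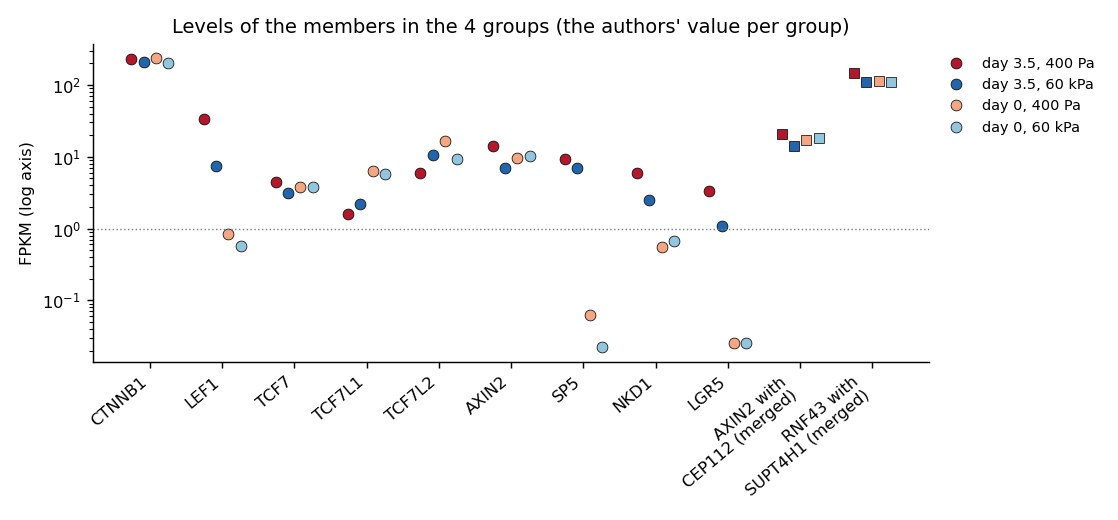
FPKM of each member (y axis, log scale) in the 4 groups, 1 point per group as the authors give it; circles are rows naming a single gene, squares are merged rows, and the dotted line is at 1 FPKM. LEF1, SP5, NKD1 and LGR5 lie below 1 FPKM in both groups of day 0 and above it in both groups of day 3.5, while CTNNB1 stays between 204 and 234 FPKM.

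Among the TCF/LEF factors, LEF1 differed most between the gels at day 3.5 and between the days. At day 0 TCF7L2 had a larger log2 ratio between the gels than LEF1 (0.84 against 0.54). LEF1, which in its activating form recruits beta-catenin to target genes, was at 33.0 FPKM (soft) and 7.45 FPKM (stiff) in induced cells. At day 0 it was at 0.833 FPKM (soft) and 0.574 FPKM (stiff). LEF1 was thus below 1 FPKM in undifferentiated cells on both gels and highest on the soft gel after induction. At day 3.5 it was 4.43-fold higher on the soft gel, a log2 ratio of 2.15 (SE 0.77) and a change of 2.01 on the log2(FPKM + 1) scale. The authors' deposited table called it, with p = 0.0001 and q = 0.0139. That p implies a smaller error than the SE, by which the 95% interval was from 0.63 to 3.66 (normal approximation). Of the 18225 loci tested that day, 237 had a larger change in either direction. LEF1 was the single member called at day 3.5, out of 9 tested. The authors' deposited table called 1.33% of all loci that day, 1.08% higher on the soft gel and 0.252% higher on the stiff gel, and the share among the members rests on a single gene. At day 0 LEF1 was not called in the authors' deposited table (log2 ratio 0.54, SE 2.13, q = 0.9998).

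LEF1-AS1, a transcript antisense to LEF1, was at 4.28 FPKM (soft) and 0.399 FPKM (stiff) in induced cells, with q = 0.155 in the authors' deposited table. How the authors' counting treated strand is not given, so reads of LEF1 and LEF1-AS1 may not be separated. Markers of other cells differed between the gels as well, and their part in the difference of LEF1 was not tested. At day 3.5 all 7 mesoderm markers with a row of their own lay higher on 400 Pa, and the authors' deposited table called 1 of them, HAND1. PDGFRA, a further mesoderm marker, lies in a merged row and was left out. Of 4 fibroblast markers the authors' deposited table called 3, all toward the soft gel, with sums of 218 FPKM (soft) and 35.7 FPKM (stiff). THY1 was not called. It was at 135 FPKM (soft) and 191 FPKM (stiff) in undifferentiated cells, so it is not particular to fibroblasts here. At day 3.5 it was at 25.5 FPKM (soft) and 26.8 FPKM (stiff), the larger part of the stiff sum. Of 4 amnion and trophoblast markers, 3 lay higher on 400 Pa and 1, VTCN1, was called in the authors' deposited table, with sums of 103 FPKM (soft) and 21.6 FPKM (stiff). All 4 tested neuroectoderm markers lay higher on 60 kPa, and the authors' deposited table called 3 of them, with sums of 95.8 FPKM (soft) and 237 FPKM (stiff). All 6 pluripotency markers lay higher on 60 kPa as well, and 1, PRDM14, was called in the authors' deposited table. The 3 endoderm markers summed to 3.15 FPKM (soft) and 1.35 FPKM (stiff), with SOX17 at 0.235 FPKM (soft) and 0.380 FPKM (stiff). None of these markers was at 0 that day. In undifferentiated cells the authors' deposited table called 1 marker, TFAP2A of amnion and trophoblast, at 2.41 FPKM (soft) and 0.465 FPKM (stiff), with q = 0.0390. All 3 neuroectoderm markers tested at day 0 lay higher on 400 Pa, unlike at day 3.5. Of the 6 pluripotency markers 3 lay higher on each gel, and 1 tested mesoderm marker, KDR, lay higher on 60 kPa. In such bulk libraries, fewer cells of a type and less RNA per cell cannot be told apart.

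TCF7, called TCF1 at the protein level and long known from T cells, was at 4.41 FPKM (soft) and 3.10 FPKM (stiff) in induced cells, against 3.75 FPKM (soft) and 3.78 FPKM (stiff) in undifferentiated cells. Its log2 ratio was 0.51 at day 3.5 and -0.01 at day 0. The SE implied by the deposited statistic was wide, at 3.41 at day 3.5 and 2.87 at day 0. It does not go with the deposited p of 0.426 at day 3.5, which implies a smaller error. TCF7 was not called on either day in the authors' deposited tables.

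TCF7L1, known mainly as a repressor of WNT targets and, in mouse embryonic stem cells, as a brake on self-renewal genes, was at 1.62 FPKM (soft) and 2.22 FPKM (stiff) in induced cells, against 6.36 FPKM (soft) and 5.80 FPKM (stiff) in undifferentiated cells. Both levels of induced cells lay below both of undifferentiated cells. Day 3.5 over day 0, its change was -1.49 on the soft gel and -1.08 on the stiff gel. The gels did not differ by a call on either day in the authors' deposited tables (log2 ratio -0.46, SE 1.17, at day 3.5 and 0.13, SE 0.76, at day 0). A second, lower row also named TCF7L1 was at 0.205 FPKM (soft) and 0.459 FPKM (stiff) in induced cells, against 2.01 FPKM (soft) and 0.808 FPKM (stiff) in undifferentiated cells. By its locus number that row lies among genes of the minus strand (13 of 13 neighbours with a known strand within 20 locus numbers on either side, and 31 of 32 within 40), whereas TCF7L1 is annotated on the plus strand.

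TCF7L2, the most widely expressed family member, which can activate or repress, stood in opposite order on the 2 gels at the 2 days. It was at 5.99 FPKM (soft) and 10.7 FPKM (stiff) in induced cells, against 16.7 FPKM (soft) and 9.30 FPKM (stiff) in undifferentiated cells. The lowest and the highest of its 4 values were thus both on the soft gel, while those on the stiff gel lay close together. The log2 ratio of soft over stiff was -0.84 at day 3.5 (SE 1.31) and 0.84 at day 0 (SE 0.84). In the authors' deposited tables p was 0.0793 at day 3.5 and 0.0207 at day 0, and neither was called. The difference between the days was -1.68 with an SE of 1.55 and missed the threshold (normal approximation, Benjamini-Hochberg adjustment over 16903 loci). With errors taken from the deposited p-values in place of the statistics the SE became 0.60, and the difference still missed the threshold. The deposited p-values and statistics do not go together for this gene, and the first error is the wider.

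Side by side, the 4 factors made up a different mixture in each group. Their summed FPKM was 45.0 FPKM (soft) and 23.5 FPKM (stiff) in induced cells, against 27.6 FPKM (soft) and 19.5 FPKM (stiff) in undifferentiated cells. LEF1 held 73.3% of that sum on 400 Pa and 31.7% on 60 kPa at day 3.5, against 3.02% on 400 Pa and 2.95% on 60 kPa at day 0. TCF7L2 held 13.3% on 400 Pa and 45.6% on 60 kPa at day 3.5, against 60.4% on 400 Pa and 47.8% on 60 kPa at day 0. TCF7L1 held 3.59% on 400 Pa and 9.44% on 60 kPa at day 3.5, against 23.0% on 400 Pa and 29.8% on 60 kPa at day 0. LEF1 was therefore the most abundant of the 4 in induced cells on the soft gel, and TCF7L2 in the other 3 groups. Because TCF7L2 and LEF1 at day 3.5 on the stiff gel (10.7 FPKM of TCF7L2 and 7.45 FPKM of LEF1) have no spread of their own, their order there cannot be held against an error. The level of CTNNB1 was 5.07 times the sum of the 4 factors on 400 Pa and 8.82 times on 60 kPa at day 3.5, and 8.48 times on 400 Pa and 10.5 times on 60 kPa at day 0.

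**Figure D2:**
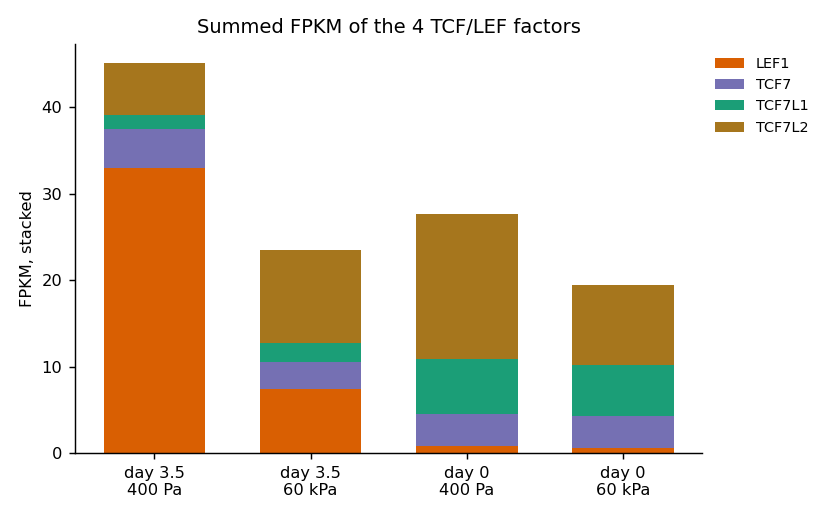
Stacked bars of the FPKM of LEF1, TCF7, TCF7L1 and TCF7L2 in the 4 groups (y axis, FPKM from 0; 1 value per group, no error available). LEF1 fills 73.3% of the bar for induced cells on 400 Pa and about 3% of each bar at day 0 (3.02% on 400 Pa and 2.95% on 60 kPa).

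The feedback target AXIN2 is a scaffold of the destruction complex and a much used read-out of canonical WNT signalling. The row named AXIN2 alone was at 13.9 FPKM (soft) and 7.05 FPKM (stiff) in induced cells, against 9.69 FPKM (soft) and 10.3 FPKM (stiff) in undifferentiated cells. A second row, which merges AXIN2 with CEP112 and a further transcript, was at 21.0 FPKM (soft) and 14.0 FPKM (stiff) in induced cells, against 17.0 FPKM (soft) and 18.0 FPKM (stiff) in undifferentiated cells. In both rows the soft gel lay above the stiff gel at day 3.5 and slightly below it at day 0. The log2 ratio of the row named AXIN2 alone was 0.98 at day 3.5 (SE 0.89) and -0.09 at day 0 (SE 0.73), and that of the merged row was 0.58 at day 3.5 (SE 0.81) and -0.09 at day 0 (SE 0.58). None of the 4 ratios was called in the authors' deposited tables. AXIN2 is annotated on the minus strand, but the row with its name alone carries a locus number among plus-strand genes (7 of 7 neighbours with a known strand within 20 locus numbers, and 23 of 23 within 40). The merged row lies among minus-strand genes (13 of 13 within 20 and 31 of 33 within 40). Which row holds the AXIN2 messenger RNA was not tested.

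SP5, a zinc-finger factor of the primitive streak that dampens the response of other WNT targets, was near 0 before induction. It was at 9.31 FPKM (soft) and 6.89 FPKM (stiff) in induced cells, against 0.0630 FPKM (soft) and 0.0223 FPKM (stiff) in undifferentiated cells, where the authors did not test it. Induced cells on both gels lay far above undifferentiated cells, and the gels lay close to each other. Its log2 ratio of soft over stiff at day 3.5 was 0.43 (SE 1.19), and the authors' deposited table did not call it (q = 0.99998). This is the gene whose promoter, printed above, holds 3 TCF/LEF motif matches.

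NKD1, which binds Dishevelled and restrains WNT signalling, was at 5.99 FPKM (soft) and 2.49 FPKM (stiff) in induced cells, against 0.561 FPKM (soft) and 0.664 FPKM (stiff) in undifferentiated cells. LGR5, a receptor for R-spondins and a marker of WNT-dependent stem cells in adult epithelia, was at 3.31 FPKM (soft) and 1.09 FPKM (stiff) in induced cells, against 0.0254 FPKM (soft) and 0.0258 FPKM (stiff) in undifferentiated cells. Both genes were below 1 FPKM on both gels at day 0, where the authors did not test them, and above it at day 3.5, more so on the soft gel. NKD1 was 2.41-fold higher on the soft gel at day 3.5 (log2 ratio 1.27, SE 0.70) and missed the threshold in the authors' deposited table with p = 0.00185 and q = 0.114. LGR5 was 3.04-fold higher on the soft gel (log2 ratio 1.61, SE 1.64) and missed it in the authors' deposited table with p = 0.0109 and q = 0.372. For both genes these p-values imply smaller errors than the SEs. By the SEs the 95% interval was from -0.10 to 2.63 for NKD1 and from -1.60 to 4.81 for LGR5 (normal approximation). RNF43, a ubiquitin ligase that removes Frizzled receptors from the cell surface, has no value of its own. The row it shares with SUPT4H1, a transcription elongation factor, was at 149 FPKM (soft) and 108 FPKM (stiff) in induced cells, against 112 FPKM (soft) and 110 FPKM (stiff) in undifferentiated cells. That row was not called in the authors' deposited tables (log2 ratio 0.45, SE 0.64, at day 3.5 and 0.03, SE 0.43, at day 0).

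**Figure D3:**
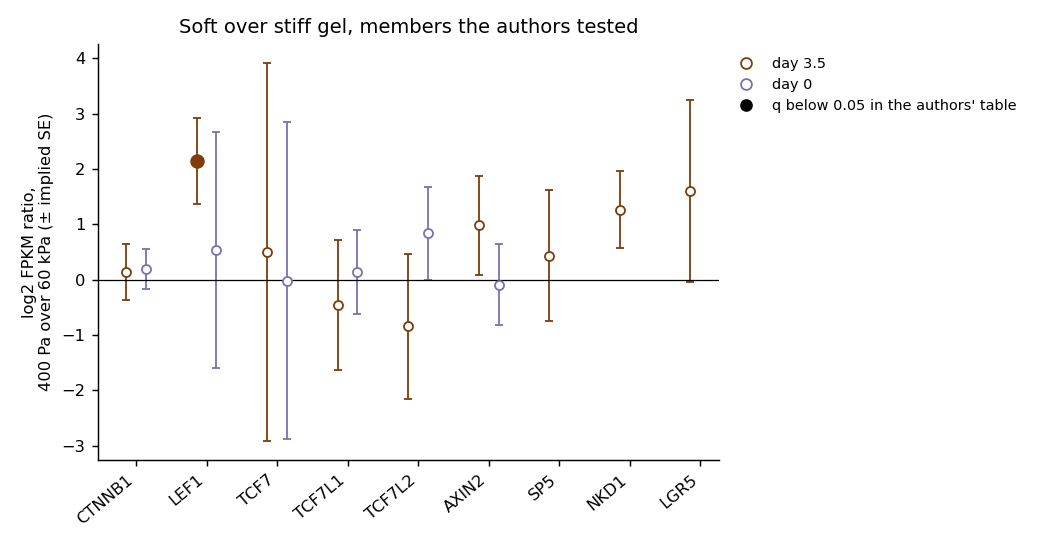
Log2 FPKM ratio of the 400 Pa over the 60 kPa gel (y axis) for members the authors tested, with the error implied by the deposited ratio and statistic as the bar; brown points are day 3.5, violet points day 0, and a filled point has q below 0.05 in the authors' deposited table. LEF1 at day 3.5 is the single filled point, at 2.15, and the bar of TCF7 at day 3.5 is the longest, with an SE of 3.41. AXIN2 is shown by the row with its name alone.

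Over the members, 7 of 9 lay higher on the soft gel at day 3.5 and 2 higher on the stiff gel (TCF7L1 and TCF7L2), with a median change of 0.40, against 51.9% of all tested loci higher on the soft gel and a median of 0.02. Before adjustment, 3 of the 9 (LEF1, NKD1 and LGR5) had p below 0.05 in the authors' deposited table, as did 5.93% of all loci. AXIN2 is counted here and below by the row with its name alone. The members were chosen with earlier results of these data known, so these shares and those below are no test of them as a set. At day 0, 5 members were tested and reached an FPKM of 1. Of these, 3 lay higher on the soft gel and 2 on the stiff gel, with a median of 0.11, against 53.9% and 0.02 over all loci. None of the 5 was called by the authors' deposited table of day 0, which called 0.139% of all loci (0.0635% higher on the soft gel and 0.0751% higher on the stiff gel), and 1 of them, TCF7L2, had an unadjusted p below 0.05, as did 1.86% of all loci. The remaining own rows of day 0 were LEF1, tested but below the minimum in both groups, and SP5, NKD1 and LGR5, which were not tested. The effect of the gel could be compared between the days for 6 members. None of the 6 passed the threshold (normal approximation with Benjamini-Hochberg adjustment), and 0.0651% of all loci did; before adjustment 0 of the 6 were below 0.05. With errors taken from the deposited p-values, again none passed the threshold, and 1 of the 6, TCF7L2, was below 0.05 before adjustment. For LEF1 the difference was 1.61, with an SE of 2.27 from the statistics and 0.83 from the p-values, and it missed the threshold with either error. A call of LEF1 at day 3.5 without one at day 0 therefore does not show that the days differ. For the row named AXIN2 alone the difference was 1.08, with an SE of 1.15 from the statistics and 0.83 from the p-values. Whether that row holds the AXIN2 messenger RNA was not tested.

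The levels of the days were then set side by side. All loci here means those listed on both days with at least 1 FPKM on that gel on either day, 18245 for the soft gel and 18458 for the stiff gel. On the soft gel, 4 of 9 were at least 2-fold higher at day 3.5 than at day 0 on the FPKM + 1 scale, where 9.3% of all loci were, and 2 of 9 were at least 2-fold lower, where 7.59% were. On the stiff gel 4 of 9 were at least 2-fold higher, where 6.97% of all loci were, and 1 of 9 was at least 2-fold lower, where 5.05% were. The same 4 genes were higher on both gels: LEF1, with a change of 4.21 on the soft gel and 2.43 on the stiff gel, SP5 with 3.28 on the soft gel and 2.95 on the stiff gel, NKD1 with 2.16 on the soft gel and 1.07 on the stiff gel, and LGR5 with 2.07 on the soft gel and 1.02 on the stiff gel. On the stiff gel NKD1 and LGR5 lay just past the limit of 1. All 4 genes were below 1 FPKM on both gels at day 0 and met the FPKM minimum through day 3.5 alone. Their count therefore cannot be weighed against the share over all loci. TCF7L1 was lower on both gels, and TCF7L2 on the soft gel alone, by -1.34 there against a change of 0.19 on the stiff gel. The change of the row named AXIN2 alone was 0.48 on the soft gel and -0.49 on the stiff gel. That of CTNNB1 was -0.04 on the soft gel and 0.02 on the stiff gel. For SP5 and LGR5 the day 0 levels are so close to 0 that their folds are not given.

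**Figure D4:**
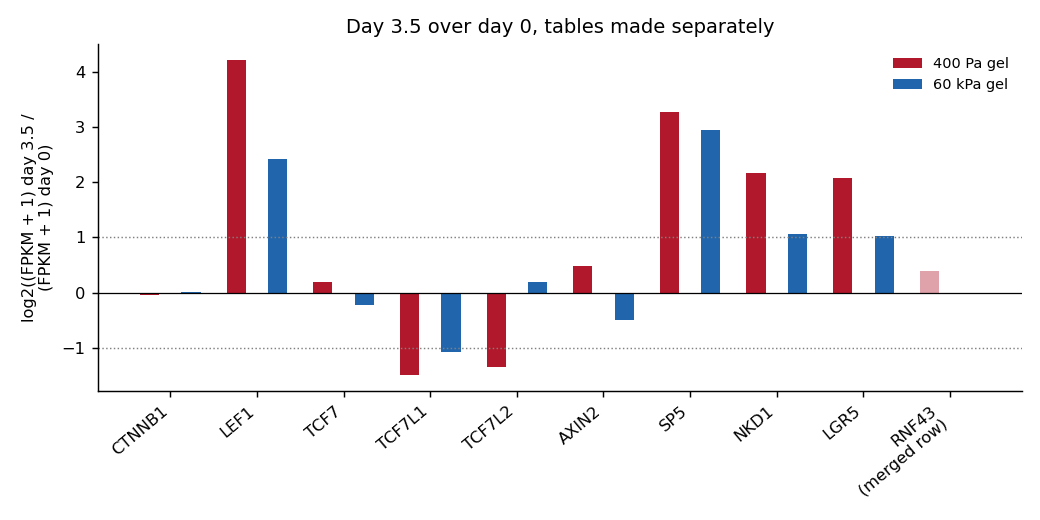
Change from undifferentiated to induced cells (y axis, log2((FPKM + 1) at day 3.5 / (FPKM + 1) at day 0)) for each member, on the 400 Pa gel (red) and the 60 kPa gel (blue); dotted lines mark 2-fold, pale bars are the merged row of RNF43, and no error is available. LEF1, SP5, NKD1 and LGR5 lie above the upper line on both gels, and TCF7L1 below the lower one. AXIN2 is shown by the row with its name alone.

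The genes around the members in the pathway were read from lists. Over all loci the authors' deposited tables called 1.33% at day 3.5 and 0.139% at day 0. At those shares a list of this size would seldom hold a call. A count of 0, here and in the lists that follow, therefore says little. The authors' deposited tables called no gene of the destruction complex in induced cells (0 of 10 tested; median change -0.12) or in undifferentiated cells (0 of 10; median 0.06). The kinase CSNK1A1, which primes beta-catenin for degradation, was at 187 FPKM (soft) and 171 FPKM (stiff) in induced cells, and the related kinase CSNK1E at 65.2 FPKM (soft) and 78.6 FPKM (stiff). APC, GSK3A and PPP2CA lie in merged rows and were left out of the counts. Of the receptor-proximal transducers, which pass the signal from receptor to Dishevelled or help WNT secretion, 0 of 8 were called on either day in the authors' deposited tables (median -0.16 at day 3.5 and -0.02 at day 0). DVL2, a Dishevelled protein, was at 16.8 FPKM (soft) and 21.0 FPKM (stiff) in induced cells. The highest of the list that day, WLS, was at 131 FPKM (soft) and 62.6 FPKM (stiff). Nuclear cofactors of beta-catenin had 0 calls in the authors' deposited tables among 9 tested at day 3.5 (median -0.27) and 0 of 8 at day 0 (median 0.05). The chromatin remodeller SMARCA4 was at 47.9 FPKM (soft) and 48.6 FPKM (stiff) in induced cells. Repressors of TCF or beta-catenin had 0 of 10 called on either day in those deposited tables (median -0.01 on both). Groucho-family TLE4 was at 68.0 FPKM (soft) and 71.3 FPKM (stiff) in induced cells, against 27.6 FPKM (soft) and 27.9 FPKM (stiff) at day 0.

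Among other direct WNT targets, the authors' deposited table called 5 of 11 tested as higher on the soft gel at day 3.5, beside 1.08% of all loci, and 0 as higher on the stiff gel. The list was chosen with earlier results of these data known, so this share is no test of WNT targets. By value alone 9 of the 11 lay higher on the soft gel and 2 on the stiff gel, with a median change of 1.09. At day 0 the deposited table called 0 of 6, with a median of 0.49. BAMBI, a pseudoreceptor of the TGF-beta family, was at 199 FPKM (soft) and 35.2 FPKM (stiff) in induced cells (log2 ratio 2.50, SE 0.47, q = 0.00783 in the authors' deposited table). MSX1, a homeobox factor of mesenchyme, was at 18.6 FPKM (soft) and 3.26 FPKM (stiff) (log2 ratio 2.52, SE 0.67), and MSX2 at 49.0 FPKM (soft) and 16.2 FPKM (stiff) (log2 ratio 1.60, SE 0.48). The caudal factors were lower in level, CDX1 at 6.23 FPKM (soft) and 1.27 FPKM (stiff) and CDX2 at 14.8 FPKM (soft) and 1.74 FPKM (stiff). BAMBI, MSX1, MSX2, CDX2 and ID2 are also known to respond to BMP, which was in the induction cocktail, so these genes are not specific to WNT. ID2, the highest of the list, was at 339 FPKM (soft) and 158 FPKM (stiff) at day 3.5 and was not called (q = 0.152 in the authors' deposited table). FST was at 57.7 FPKM (soft) and 58.2 FPKM (stiff). Among R-spondin and feedback genes other than the members, 0 of 9 were called in the authors' deposited tables at day 3.5 (median 0.28) and 0 of 5 at day 0 (median 0.26). The LGR5 relative LGR4 was at 71.4 FPKM (soft) and 72.4 FPKM (stiff) in induced cells, against 61.5 FPKM (soft) and 56.7 FPKM (stiff) at day 0. The WNT antagonist DKK1 was at 21.6 FPKM (soft) and 12.3 FPKM (stiff) at day 3.5. Of 5 tested genes of the cadherin-catenin junction, where beta-catenin also binds, CDH11 was called higher on the soft gel at day 3.5 in the authors' deposited table, at 106 FPKM (soft) and 33.6 FPKM (stiff). CDH1 was at 207 FPKM (soft) and 167 FPKM (stiff).

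**Figure D5:**
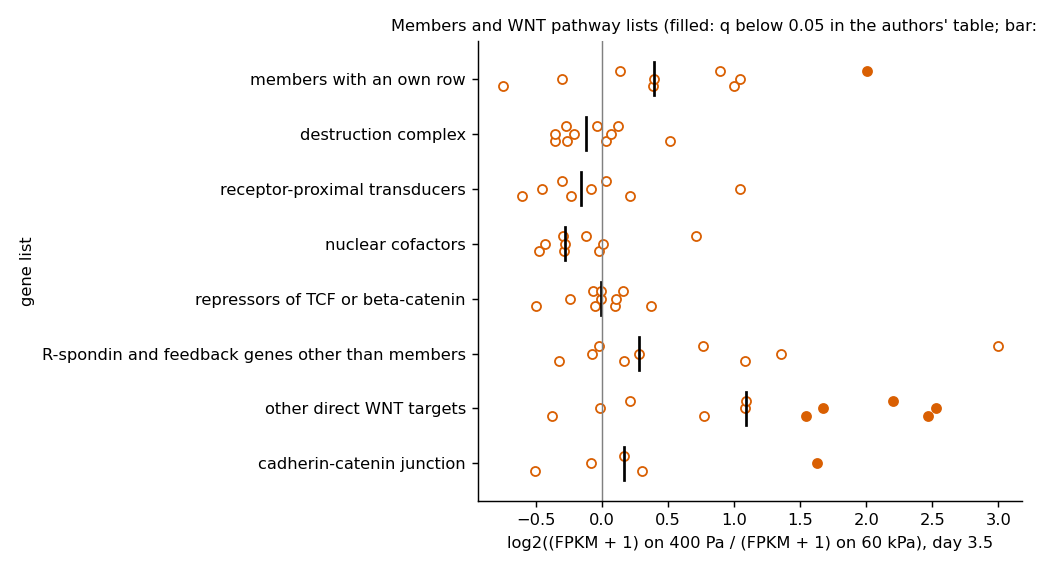
Change between the gels at day 3.5 (x axis, log2((FPKM + 1) on 400 Pa / (FPKM + 1) on 60 kPa)) of each tested gene, by list (rows); filled points have q below 0.05 in the authors' deposited table and the black bar is the median of a list. The filled points are LEF1 among the members, 5 other direct WNT targets and CDH11, all right of 0.

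Genes with a like pattern were sought over the 4 groups among 10234 loci, as the smallest distance between centred log2(FPKM + 1) profiles. These loci name a single gene, were tested on both days and reached 5 FPKM in a group, with the members left out. Genes too low at day 0 to be tested, such as MSX1, were thus no candidates, although LEF1 is itself low at day 0. With 4 values a profile is easily matched. Profiles were not scaled, so the count of loci near a member also depends on how much that member varies. Within a distance of 0.5 lay 5599 loci for CTNNB1, 1183 for the row named AXIN2 alone and 5 for LEF1. Nearest to CTNNB1 were LMBR1, ZWINT and MOAP1, at distances of 0.024, 0.028 and 0.034. Nearest to the row named AXIN2 alone were PHF11, NMT1 and CCDC115, at 0.0365, 0.0681 and 0.0997. Nearest to LEF1 among these candidates were TGFBI, CDH11 and EPAS1, at 0.36, 0.39 and 0.44. TGFBI, a secreted matrix protein, was at 158 FPKM (soft) and 27.4 FPKM (stiff) in induced cells, against 6.39 FPKM (soft) and 4.68 FPKM (stiff) in undifferentiated cells. EPAS1, a hypoxia-inducible factor, was at 33.5 FPKM (soft) and 6.93 FPKM (stiff) in induced cells, against 1.45 FPKM (soft) and 1.02 FPKM (stiff) in undifferentiated cells.

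In the authors' tables on hg19 each row carries the span of a whole cluster of overlapping transcripts, not of the gene alone. CTNNB1 lies in 41236328 to 42003922 of chromosome 3, a span that also holds ULK4, and AXIN2 in 63524681 to 64188202 of chromosome 17. LEF1 lies in 108968341 to 109177992 of chromosome 4, TCF7L2 in 114709941 to 114927550 of chromosome 10, and SP5 in 171571861 to 171575285 of chromosome 2. The FPKM values are per gene, so they do not tell the isoforms of LEF1 and TCF7 that lack the beta-catenin binding end from those that have it.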

How the data were processed

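RNA of 8 libraries in 4 groups of 2 was sequenced, and the deposited tables hold 1 value per group, so neither read depth nor the spread between libraries is known and no library could be left out. Per the submitters' processing notes the authors used Cufflinks on hg19. Not given in the sources used here: aligner, annotation, versions and strand setting. The authors' FPKM values are scaled to transcript length and to the fragments sequenced, in a table per day. The deposited log2 ratio is that of 60 kPa over 400 Pa, and its sign was turned here. The deposited test statistic is a score of the same comparison. The deposited p-values do not go below 5e-05, and adjusting them again over the tested loci returned the deposited q-values within 5.24e-07.

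Changes were computed as log2((FPKM + 1) / (FPKM + 1)), 400 Pa over 60 kPa, which understates the change of low genes. A locus was called at q below 0.05 where either group reached an FPKM of 1, each symbol once by its highest row. The standard error is the size of the deposited log2 ratio divided by the statistic and is an approximation; errors derived from the deposited p-values were smaller for all 6 members compared between the days. Differences between days were tested with these errors (normal approximation, Benjamini-Hochberg over all loci tested on both days). The step was run on simulated data with noise drawn from the same errors. The planted differences were larger than those of the members and lay in loci with small errors. That run therefore does not tell if differences of the members' size would be found, or if the errors are right. All 10 members were named whatever their result. Of each pathway list the called genes were named, and some of the 3 with the highest mean FPKM at day 3.5, not always the highest. Members and lists were chosen with earlier results of these data known. GENCODE release 29 gave strands of genes, and none of its coordinates are printed. Alternatives were other thresholds, FPKM minimums, pseudocounts, adjustments, scalings and rows. The tools were matplotlib 3.10.9, scipy 1.17.1, pandas 2.3.3 and numpy 2.4.6 under Python 3.11.15.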

Additional observations from a re-analysis of the deposited data

How the results depend on the processing

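At day 3.5 the single call among the members, LEF1, was lost at q below 0.01, where 0 members and 128 of all loci were called against 243 at q below 0.05. At day 0 that threshold left 0 of the 24 loci called. That outcome was fixed in advance, since the deposited p-values stop at 5e-05, where the deposited q at day 0 was 0.0390. LEF1 had q = 0.0139 in the authors' deposited table. A looser threshold of q below 0.1, other FPKM minimums, a new adjustment over the expressed loci, every row of a symbol, a minimum ratio of 2 and, added after seeing the data, the merged rows left the count of members called at 1 for day 3.5 and at 0 for day 0. The members past 2-fold after induction numbered 6 on the soft gel and 5 on the stiff gel also under a pseudocount of 0.1, centring and a fold of 1.5. The share of all loci compared between the days moved. It was 27.6% on the soft gel and 23.0% on the stiff gel with a pseudocount of 0.1, and 37.3% and 31.5% on those gels at 1.5-fold, against 16.9% and 12.0% as reported, so the count of members says little of stability. No member's effect of the gel differed between the days under any of the 3 alternatives. With errors taken from the p-values, 48 of all loci differed between the days, against 11 with errors from the statistic. Of 90 recomputed changes of members between the gels 0 turned sign and 9 moved, namely those of SP5, NKD1 and LGR5 at day 0. A pseudocount cannot turn a sign, and summing rows leaves a gene with 1 row unchanged, so most signs were fixed in advance. These 3 genes were not tested at day 0 and have no SE, so any shift counted as a move. LEF1 at day 0 went from 0.22 to 0.47 with a pseudocount of 0.1 and was not counted, as its SE is 2.13. The change of SP5 was 0.41 and that of NKD1 -0.21 with a pseudocount of 0.1, against 0.06 for SP5 and -0.09 for NKD1 as reported. No paired analysis was possible because the tables hold 1 value per group and none per replicate, and leaving out a replicate was not run for the same reason.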

Other observations

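The R-spondins, secreted proteins that bind LGR receptors and raise WNT signalling by taking RNF43 and ZNRF3 off the cell surface, were looked at beside LGR5 after their values had been seen. RSPO2 was at 11.3 FPKM (soft) and 0.546 FPKM (stiff) in induced cells, a log2 ratio of 4.37 with an SE of 1.55. RSPO3 was at 4.18 FPKM (soft) and 1.45 FPKM (stiff) that day, a log2 ratio of 1.53 with an SE of 0.87. Neither was called in the authors' deposited table, where RSPO2 had q = 0.284 and RSPO3 q = 0.334. At day 0 RSPO2 was at 0.277 FPKM (soft) and 0.0834 FPKM (stiff), and RSPO3 at 0.0154 FPKM (soft) and 0.0129 FPKM (stiff). RSPO1 and RSPO4 were below 1 FPKM in all 4 groups. WLS, the carrier that WNT ligands need for secretion, was at 131 FPKM (soft) and 62.6 FPKM (stiff) in induced cells, against 1.36 FPKM (soft) and 1.32 FPKM (stiff) in undifferentiated cells. Its log2 ratio of the soft over the stiff gel at day 3.5 was 1.06 with an SE of 0.72 and was not called in the authors' deposited table, with q = 0.748.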
